A study of Homo sapiens with 6 samples.

Results

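The genes described here are the AP-1 subunits of the FOS and JUN families with EGR1, ATF3 and MYC, 10 genes chosen by their symbols among the 31831 genes of the deposited count table. All 10 passed the low-count filter that left 17142 genes for testing. They were measured in HK-2 cells, an immortalised human line derived from renal proximal tubule epithelium. All cells were kept in 30 mM glucose (high glucose, HG) for 72 h. The control group, HG-NC, carried an empty vector or control plasmid in the labels' terms and a control lentivirus in the study's methods, and the second group, HG-OE, carried the hnRNP-F overexpression construct. Each group had 3 libraries of polyadenylated RNA. The study calls its replicates biological and describes parallel wells for each group, whereas the labels do not say whether the libraries came from separate cultures, so the p-values below measure the spread between these libraries.

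AP-1 is a dimer of basic leucine zipper proteins. JUN proteins pair with each other or with FOS proteins, whereas FOS proteins need a JUN partner to bind DNA, and the choice of subunits sets how strongly a dimer activates its targets. FOS, EGR1 and their relatives are known as immediate early genes because their transcription starts within minutes of growth factor or stress signalling, without new protein synthesis, and their mRNAs are short-lived. In renal tubule cells these factors are known from injury, growth factor and hyperglycaemia responses, and hnRNP-F is an RNA-binding protein of G-rich sequences that acts in splicing.

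Matches to known regulatory motifs are shown first for some of the genes, and whether they act in these cells was not tested. AU-rich elements in 3′ untranslated regions (UTRs) recruit decay factors, and the nonamer TTATTTATT is a strict form of them. On the GENCODE release 44 canonical transcripts (GRCh38) the nonamer was found in the 3′ UTRs of 2 of the 10 genes, FOS among them, against 8.23% of 20046 protein-coding transcripts. The shorter ATTTA pentamer, which lies within the nonamer, was found in the 3′ UTRs of all 10, against 65.8% of those transcripts. The stretch shown for FOS is chr14:75282060-75282088 (+ strand, terminal exon), in which the nonamer starts at base 646 of the 3′ UTR. Capitals mark the nonamer.

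FOS 3′ UTR: tgtttttaatTTATTTATTaagatggatt

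Promoter motifs were searched on both strands of RefSeq windows (GRCh38.p14) from 250 bases before to 50 after each start, which held 9 promoters for 8 of the genes and 35116 promoters in all. The CArG box, the site of serum response factor, was found in EGR1 alone among the 8 genes, at both -105 and -83 from the start (chr5:138465365-138465392 and chr5:138465387-138465414, + strand), and in 1.29% of all promoters. EGR1 also held GCGNGGGCG, the site of its own protein, at -198 (chr5:138465271-138465298), which 9.43% of all promoters held. TGACATCA, a JUN and ATF site, was found in JUN at -67 (chr1:58784097-58784124, - strand) and ATF3 at -123 (chr1:212565274-212565301, + strand), against 2.61% of all promoters. The ATF3 match lay in the upstream promoter window of that gene, and its other window (chr1:212614768-212615067) held no such match. The AP-1 site TGACTCA was found in FOSL2, just after the start (chr2:28392851-28392878, + strand), against 4.95%. JUND held the cyclic AMP response element TGACGTCA (1.85% of all promoters), and the E-box CACGTG (7.26%) was in none of the 8 genes. The coordinates are those of the stretches shown, positions such as -105 are those of the first base of the match, capitals mark each match, and a match describes these letters only.

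EGR1 CArG at -105: ccggtcctgCCATATTAGGgcttcctgc
EGR1 CArG at -83: tcctgcttcCCATATATGGccatgtacg
EGR1 EGR site: tgggatgcggGCGCGGGCGcgggcccta
JUN TGACATCA: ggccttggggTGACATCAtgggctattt
ATF3 TGACATCA: acctatgataTGACATCAtatggccact
FOSL2 TGACTCA: tgccattgtagTGACTCAtctcgggcag

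The libraries held 25507595 to 29444841 counted read pairs. HNRNPF was at 304, 319 and 311 CPM (the field's usual depth-scaled count, with library sizes adjusted by the trimmed mean of M values, TMM) in HG-NC and at 430, 452 and 423 in HG-OE. It was higher in every HG-OE library, by 0.48 ± 0.0388 on the log2 scale (estimate ± standard error), with counts of the construct and of the endogenous gene not separated. The tubule markers PAX8, CDH2, KRT8 and KRT18 had at least 5169 counts in every library, whereas LRP2, CUBN, AQP1 and ANPEP, which define differentiated proximal tubule, had at most 54 counts in any. HG-OE replicate 3 stood apart from the other libraries on the second principal component, at 34.3 against -19.6 to 3.35. Of the 6 squamous epithelium markers, KRT5 and KRT6A had 334 and 274 counts in this library and 0 in the other 5, and KRT17 had 724 counts against at most 1. The summed level of the list was 70.7 CPM in HG-OE replicate 3, 6.44 to 8.78 CPM in HG-NC and 6.81 to 8.59 CPM in the other HG-OE libraries. ALB, the hepatocyte marker, had 4359 counts there and at most 78 elsewhere, and the 6 hepatocyte markers summed to 631 CPM against 461 and 462 CPM in the other HG-OE libraries and 266 to 275 CPM in HG-NC. Most of that sum was SERPINA1. The 4 leukocyte markers reached at most 1.53 CPM in any library, the endothelial markers 1.38 CPM and the fibroblast markers 41.3 CPM. The leukocyte and fibroblast maxima were those of HG-OE replicate 3. Its fibroblast sum stood against 31.9 and 32.2 CPM in the other HG-OE libraries and 35.6 to 38.9 CPM in HG-NC. COL1A2, a fibroblast marker, had 141 counts in HG-OE replicate 3 and 0 in every other library. In HG-OE replicate 3, COL1A1 (289 counts), PDGFRB (59) and DCN (3) were not above the other HG-OE libraries, while LUM (713) and COL3A1 (10) were. The 12 tubule markers summed to 1445 to 1528 CPM in HG-NC and to 1768, 1812 and 2248 CPM in HG-OE, and the part of these marker levels in the results below was not tested. Results that rest on HG-OE replicate 3 are therefore given without it as well.

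Between HG-OE and HG-NC the 10 genes moved in different directions, in shares near those of all tested genes. EGR1 rose, JUNB rose slightly, FOSL2, ATF3 and MYC fell, and FOS, FOSB, FOSL1, JUN and JUND did not pass the test. Only EGR1 reached the study's threshold for differentially expressed genes (DEGs), an adjusted p under 0.05 and at least a 2-fold change, against 5.82% of all tested genes (3.69% higher and 2.13% lower). At an adjusted p under 0.05 without a fold threshold, 5 of the 10 passed (2 higher and 3 lower). This was near the 51.8% of all tested genes that did so (25.9% higher and 25.9% lower). CPM values did not overlap between the groups for 6 of the 10, against 59.0% of tested genes. In the median, the log2 fold change was -0.08 over these genes and 0.01 over all tested, and the median absolute log2 fold change was 0.37 against 0.27. In bulk RNA, a change in the share of cells that express a gene and a change in RNA per cell cannot be told apart.

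**Figure D1:**
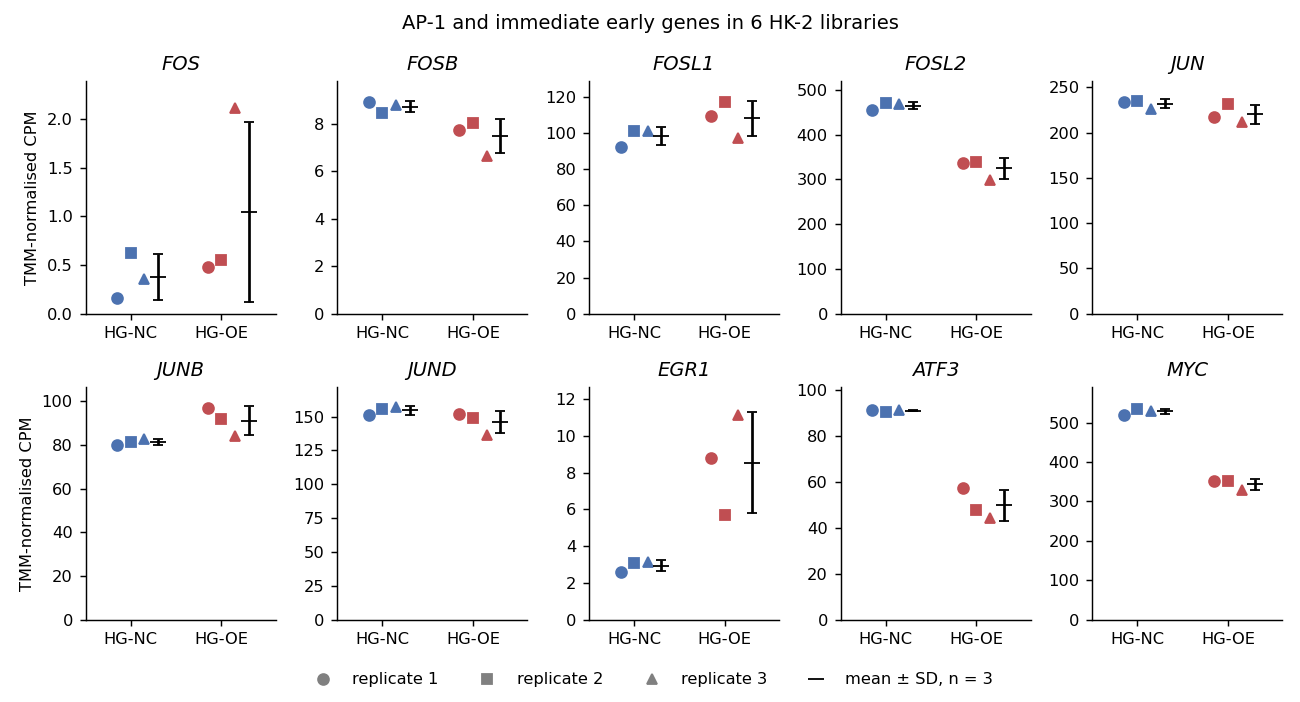
TMM-normalised CPM of each of the 10 genes by library (y axes start at 0), with HG-NC in blue, HG-OE in red, one symbol per replicate number, and the mean ± SD of 3 libraries as a black bar. FOSL2, ATF3 and MYC sit lower and EGR1 higher in every HG-OE library, while the high HG-OE mean of FOS comes from replicate 3 at 2.12 CPM.

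Among the FOS proteins, FOSL2 (FRA-2) is a subunit that lacks the strong transactivation domain of FOS. FOSL2 (ENSG00000075426.12, chr2:28392448-28417317, + strand), whose match to the AP-1 site is shown above, was at 456, 471 and 468 CPM in HG-NC and at 336, 340 and 299 CPM in HG-OE. Every HG-OE library lay below every HG-NC library. FOSL2 fell by 0.52 on the log2 scale (standard error 0.0475, 95% interval -0.62 to -0.42), which is 0.699 times the HG-NC level (edgeR quasi-likelihood test, Benjamini-Hochberg adjusted p = 9.71e-07). Genes around it on chromosome 2 were lower as well. The 95 other tested genes within 10 Mb, with a mean of at least 100 counts, had a median log2 fold change of -0.32, and FOSL2 stood -0.20 from that median.

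FOSL1 (FRA-1; ENSG00000175592.9, chr11:65892049-65900573, - strand) is the FOS family member best known from epithelial and tumour cells, where it accumulates under sustained ERK signalling. It was at 92.6, 101.1 and 101.4 CPM in HG-NC and at 109.8, 117.2 and 97.5 CPM in HG-OE. The groups overlapped through HG-OE replicate 3, which lay within the HG-NC range. The log2 fold change was 0.14 (standard error 0.0612, 95% interval 0.0045 to 0.27) and did not pass (edgeR, adjusted p = 0.0780). Without HG-OE replicate 3 it was 0.21 and passed (edgeR, adjusted p = 1.57e-04), and the part of that library in the result was not tested. The 254 genes in the 10 Mb on either side were at 0.20 in the median, from which FOSL1 differed by -0.06.

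FOS and FOSB, the rapidly induced members with strong transactivation domains, were scarce. FOS (ENSG00000170345.10, chr14:75278826-75282230, + strand) had 4, 17 and 10 counts in HG-NC and 14, 16 and 62 counts in HG-OE. HG-OE replicate 3 alone stood above the other libraries, its counting interval of 47.5 to 79.5 (95%, exact Poisson, counting error only) lying above those of the other 5. The log2 fold change of 1.44 (standard error 0.582, 95% interval 0.19 to 2.70) did not pass (edgeR, adjusted p = 0.0523; exact permutation test on CPM, two-sided p = 0.3). Without HG-OE replicate 3 it was 0.42 (edgeR, adjusted p = 0.479), and leaving out other single libraries put it between 1.09 and 2.00, past the threshold in 3 of those 5 fits. The squamous marker sum was highest in the same library as FOS, as were the hepatocyte, leukocyte, fibroblast and tubule sums. The part of these markers in the FOS counts was not tested.

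FOSB (ENSG00000125740.14, chr19:45467995-45475179, + strand) was at 8.93, 8.46 and 8.77 CPM in HG-NC and at 7.75, 8.04 and 6.66 CPM in HG-OE. All HG-OE values lay below the HG-NC values, but the log2 fold change of -0.22 (standard error 0.108, 95% interval -0.45 to 0.01) did not pass (edgeR, adjusted p = 0.104). The exact permutation test gave p = 0.1 (two-sided), the smallest it allows with 3 libraries against 3. Its 352 neighbours within 10 Mb were at -0.13 in the median, and FOSB stood -0.09 from them.

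**Figure D2:**
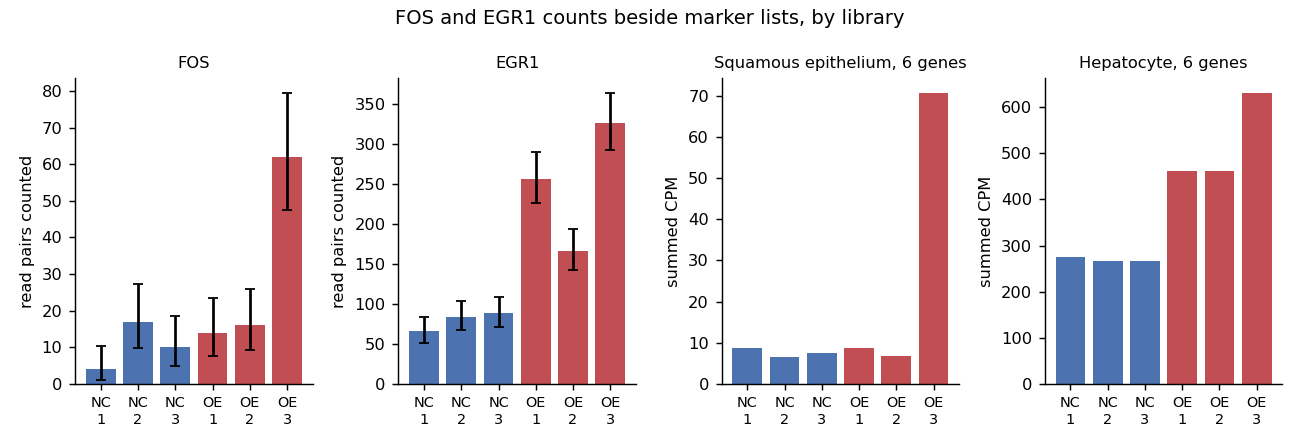
Read pairs counted for FOS and EGR1 (bars, with 95% exact Poisson intervals for counting error) and summed CPM of 6 squamous epithelium and 6 hepatocyte markers in each library, HG-NC in blue and HG-OE in red. FOS stands out in HG-OE replicate 3 (62 counts), the library with the highest squamous (70.7 CPM) and hepatocyte (631 CPM) marker sums. EGR1 is above HG-NC in all 3 HG-OE libraries.

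JUN proteins supply the obligatory partner of the dimer. JUN itself (ENSG00000177606.8, chr1:58776845-58784048, - strand), the strongest activator among them, was at 234, 235 and 226 CPM in HG-NC and 217, 232 and 212 CPM in HG-OE. The ranges overlapped through HG-OE replicate 2. Its log2 fold change of -0.07 (95% interval -0.17 to 0.02) did not pass (edgeR, adjusted p = 0.162), an interval of -10.8% to 1.20% in percent. JUND (ENSG00000130522.6, chr19:18279694-18281622, - strand), the member expressed steadily in resting cells, was at 151, 156 and 157 CPM in HG-NC and 152, 149 and 137 CPM in HG-OE. Here HG-OE replicate 1 lay within the HG-NC range. The log2 fold change was -0.08 (95% interval -0.18 to 0.01; edgeR, adjusted p = 0.142), with 250 neighbours within 10 Mb at a median of -0.09.

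JUNB (ENSG00000171223.6, chr19:12791486-12793315, + strand) is a weaker activator that can restrain JUN. It was at 80.0, 81.5 and 82.9 CPM in HG-NC and at 97.1, 92.1 and 84.1 CPM in HG-OE. All HG-OE libraries lay above all HG-NC libraries, replicate 3 only just. JUNB rose by 0.16 on the log2 scale (standard error 0.0519, 95% interval 0.05 to 0.27; edgeR, adjusted p = 0.0184), or 11.8%. This call was lost when HG-NC replicate 1 (adjusted p = 0.0567), HG-NC replicate 2 (0.0514), HG-OE replicate 1 (0.0934) or HG-OE replicate 2 (0.0524) was left out of the edgeR fit. Without HG-OE replicate 3 the log2 fold change was 0.22 (edgeR, adjusted p = 8.20e-05). The 338 neighbours within 10 Mb had a median of -0.08, and JUNB stood 0.24 above it.

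**Figure D3:**
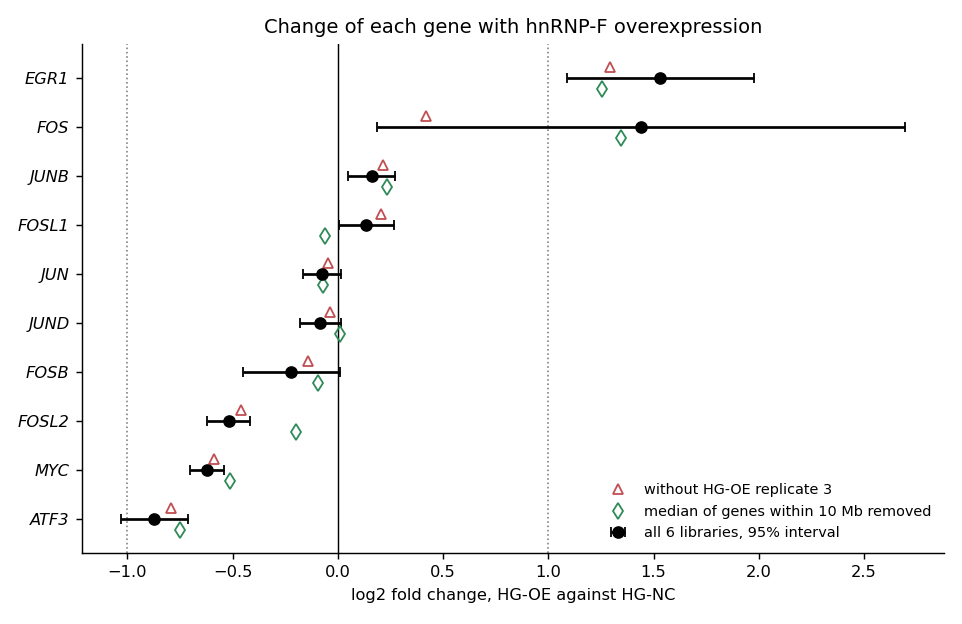
Log2 fold change of each gene in HG-OE against HG-NC (x axis) with its 95% interval from all 6 libraries (black), without HG-OE replicate 3 (red triangles) and after removing the median of genes within 10 Mb (green diamonds); dotted lines mark 2-fold. EGR1 alone has its whole interval past 2-fold, FOS moves from 1.44 to 0.42 without replicate 3, and FOSL2 moves from -0.52 to -0.20 against its neighbours.

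Levels of different genes were compared on the authors' FPKM values, fragment counts scaled by library size and gene length. In HG-NC the order was MYC (103 ± 1.63 FPKM; mean ± SD, n = 3), JUND (71.7 ± 1.73), FOSL2 (58.1 ± 1.09), JUN (57.2 ± 1.03), FOSL1 (46.6 ± 2.48), JUNB (39.8 ± 0.842), ATF3 (20.1 ± 0.133), FOSB (1.40 ± 0.0379), EGR1 (0.84 ± 0.0872) and FOS (0.107 ± 0.0702). Only FOSL2 and JUN, next to each other in that order, had overlapping ranges. In HG-OE, JUND (67.0 ± 3.91 FPKM) and MYC (66.3 ± 2.59) overlapped at the top. JUN (53.7 ± 2.34), FOSL1 (50.7 ± 4.55), JUNB (44.1 ± 3.30) and FOSL2 (40.1 ± 2.83) followed, each overlapping its neighbour in the order. ATF3 (10.9 ± 1.55), EGR1 (2.41 ± 0.774), FOSB (1.19 ± 0.114) and FOS (0.29 ± 0.26) stood below them without overlap, so that FOSL2 passed from the third to the sixth place and EGR1 from below to above FOSB.

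The balance of FOSL1 and FOSL2 within the FOS family differed between the groups without overlap. FOSL1 made up 42.9%, 44.3% and 44.5% of the family's summed FPKM in HG-NC and 54.5%, 55.9% and 54.3% in HG-OE, and FOSL2 made up 55.7%, 54.3% and 54.1% in HG-NC and 44.0%, 42.7% and 43.8% in HG-OE. On the FPKM scale FOSL2 was the larger part in every HG-NC library and FOSL1 in every HG-OE library, replicate 3 included, whereas in CPM, which is not per length, FOSL2 had the larger value in all 6 libraries. The mean difference was 11.0 percentage points for FOSL1 and -11.2 for FOSL2 (exact permutation test, two-sided p = 0.1 for each, the smallest possible; 0.175 after Benjamini-Hochberg adjustment over 7 shares). FOSL1 and FOSL2 made up nearly all of the family, so their shares mirror each other and are not separate results. By level, FOSL2 fell while FOSL1 did not pass the test. With CPM in place of FPKM the differences were 7.30 and -7.65 percentage points. Neighbours within 10 Mb moved in the same directions, with median log2 fold changes of 0.20 around FOSL1 and -0.32 around FOSL2. From these medians FOSL1 stood -0.06 and FOSL2 -0.20, and the part of the neighbourhoods in the balance was not tested. FOSB held 1.32% of the family in HG-NC and 1.29% in HG-OE. FOS held 0.0392%, 0.166% and 0.0922% in HG-NC and 0.137%, 0.153% and 0.700% in HG-OE, and its mean difference of 0.231 percentage points was 0.0459 without HG-OE replicate 3.

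Within the JUN family the share of JUNB was 23.6% ± 0.288 (SD, n = 3) in HG-NC and 26.7% ± 0.820 in HG-OE, without overlap, and that of JUND 42.5% ± 0.565 and 40.6% ± 0.416, also without overlap (exact permutation test, two-sided p = 0.1 for each, 0.175 adjusted over 7 shares). JUN held 33.9% and 32.6%, with overlap (exact permutation p = 0.3). The summed FPKM of the FOS family was 102.1, 108.1 and 108.5 in HG-NC and 94.9, 97.8 and 84.3 in HG-OE, without overlap. That of the JUN family was 169 ± 2.04 and 165 ± 8.60, with overlap (exact permutation p = 0.7). The ratio of FOS to JUN family FPKM was 0.629 ± 0.0138 in HG-NC and 0.560 ± 0.0185 in HG-OE (exact permutation p = 0.1).

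**Figure D4:**
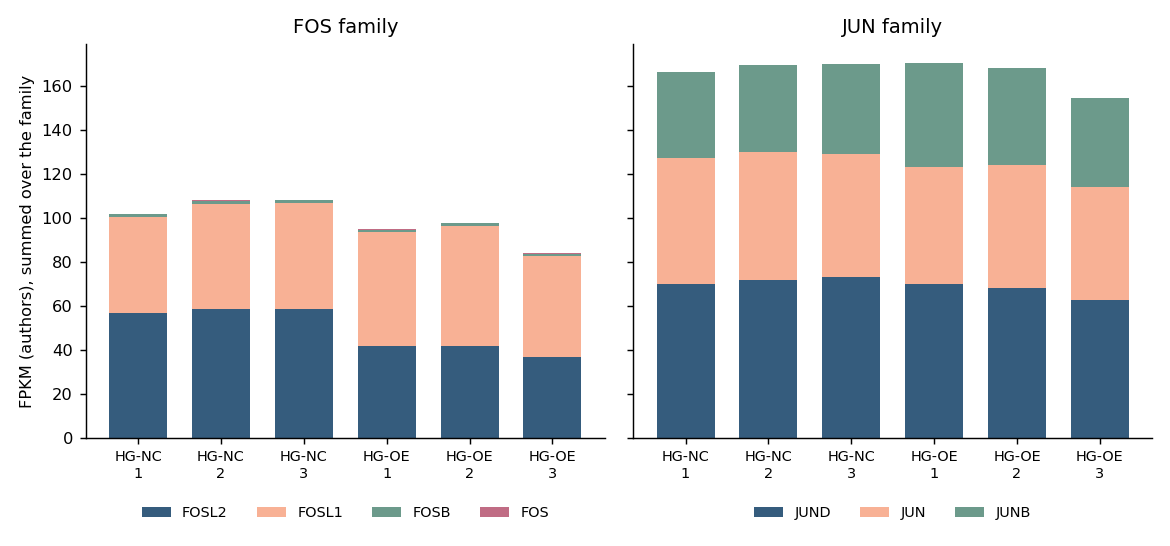
The authors' FPKM of the FOS family (left) and the JUN family (right) in each library, stacked by gene. FOSL2 takes the larger part of the FOS family in HG-NC (54.7% on average) and the smaller part in HG-OE (43.5%), while the height of the JUN family bars overlaps between the groups.

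EGR1 (ENSG00000120738.8, chr5:138465479-138469303, + strand) encodes a zinc finger factor of GC-rich promoters and is induced through serum response factor at CArG boxes such as the pair shown above. It had 66, 84 and 88 counts in HG-NC and 256, 166 and 326 counts in HG-OE, or 2.60, 3.10 and 3.15 CPM against 8.82, 5.70 and 11.1 CPM. Every HG-OE library was above every HG-NC library, beyond counting error, since the lowest HG-OE count of 166 had a 95% interval of 141.7 to 193. EGR1 rose by 1.53 on the log2 scale (standard error 0.206, 95% interval 1.09 to 1.98), or 2.89-fold (edgeR, adjusted p = 3.18e-05). Without HG-OE replicate 3, its highest library, the log2 fold change was 1.30 (edgeR, adjusted p = 1.01e-09). The spread of log2 CPM was larger in HG-OE (SD 0.485) than in HG-NC (0.151), and the medians of this SD over all tested genes were 0.10 and 0.09. The 105 neighbours on chromosome 5 had a median log2 fold change of 0.28, and EGR1 stood 1.26 above it.

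The pathway lists that follow are read against all tested genes, of which 25.9% were higher and 25.9% lower at an adjusted p under 0.05. Of 7 corepressors and known targets of EGR1, 2 were higher, 2 lower and 3 did not pass, with a median log2 fold change of 0.03. PDGFB, the platelet-derived growth factor chain, rose from 27.2 ± 1.89 to 58.7 ± 2.74 CPM (log2 fold change 1.11) and was the one DEG among them, and PDGFA was at 0.34. NAB1, a corepressor that binds EGR1, fell from 136 ± 3.13 to 84.4 ± 4.22 CPM (log2 fold change -0.69). F3, tissue factor, fell by 0.48 on the log2 scale (edgeR, adjusted p = 0.0299), with overlapping groups. NAB2 and TGFB1 were among those that did not pass.

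ATF3 (ENSG00000162772.17, chr1:212565334-212620777, + strand) is a stress-induced repressor of the ATF/CREB family that can pair with JUN proteins. It was at 91.0, 90.5 and 91.1 CPM in HG-NC and at 57.3, 47.6 and 44.1 CPM in HG-OE. The HG-NC libraries were almost equal (SD of log2 CPM 0.00502), and every HG-OE library lay far below them. ATF3 fell by 0.87 on the log2 scale (standard error 0.0730, 95% interval -1.03 to -0.71; edgeR, adjusted p = 4.13e-07), to 0.547 times the HG-NC level, just short of the 2-fold threshold. Its 92 neighbours had a median of -0.12.

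ATF3 lies downstream of ATF4 in the integrated stress response, and 4 of the 5 genes listed for that arm passed the test, 1 higher and 3 lower. ATF4, the transcription factor at the head of the arm, rose from 448 ± 6.39 to 652 ± 19.6 CPM (log2 fold change 0.54). DDIT3, which encodes the apoptotic factor CHOP, and TRIB3, a pseudokinase that feeds back on ATF4, fell, with log2 fold changes of -0.52 and -0.65. ASNS, asparagine synthetase, fell by 0.21 on the log2 scale, and CHAC1 did not pass. ATF4 mRNA and the other 3 that passed thus moved in opposite directions. Over the 5 genes the median was -0.21.

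MYC (ENSG00000136997.21, chr8:127735434-127742951, + strand), a basic helix-loop-helix factor that drives growth and ribosome production as a dimer with MAX, was at 520, 535 and 529 CPM in HG-NC and at 351, 351 and 328 CPM in HG-OE. Both groups were tight and lay well apart. MYC fell by 0.62 on the log2 scale (standard error 0.0384, 95% interval -0.70 to -0.54), to 0.650 times the HG-NC level (edgeR, adjusted p = 2.74e-08). The 44 neighbours had a median of -0.11, and MYC stood -0.51 from it.

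Of 9 tested genes of the MYC family and MAX network, 3 were higher, 4 lower and 2 did not pass. MXD4, which competes with MYC for MAX, rose from 27.8 ± 0.747 to 56.3 ± 2.19 CPM (log2 fold change 1.02) and was the one DEG. Its relatives MXD3 and MXD1 moved apart, at 0.59 and -0.57, and MAX did not pass. Among 15 tested MYC targets, 5 were higher and 9 lower, and the median log2 fold change was -0.18. The examples with the largest changes were lower, namely ODC1 of polyamine synthesis (-0.40), NOP56 of ribosomal RNA modification (-0.47) and EIF4E, the cap-binding protein (-0.55). NPM1, a nucleolar protein, was higher by 0.31. None of the 15 reached 2-fold.

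Of the 27 other immediate early genes tested, 5 rose, 13 fell and 9 did not pass, with a median log2 fold change of -0.22. SGK1, a serum- and glucocorticoid-induced kinase, fell from 257 ± 7.30 to 148 ± 6.54 CPM (log2 fold change -0.80). PLK2, a polo-like kinase, fell from 1303 ± 15.3 to 777 ± 37.0 CPM (-0.75). The matricellular genes CCN1 and CCN2, also known as YAP targets, both fell by 0.60 on the log2 scale, and GADD45B and KLF10 fell with log2 fold changes of -0.64 and -0.52. IER5L was the one DEG, rising from 13.5 ± 0.659 to 32.0 ± 1.31 CPM (log2 fold change 1.25). CSRNP1, RHOB, IER2 and DUSP1 rose by 0.58, 0.50, 0.26 and 0.14. EGR2, the closest relative of EGR1 among the tested genes, fell by 0.38 (edgeR, adjusted p = 0.00922), while EGR3 and EGR4 were under the count filter and NR4A1, NR4A2 and NR4A3 did not pass.

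**Figure D5:**
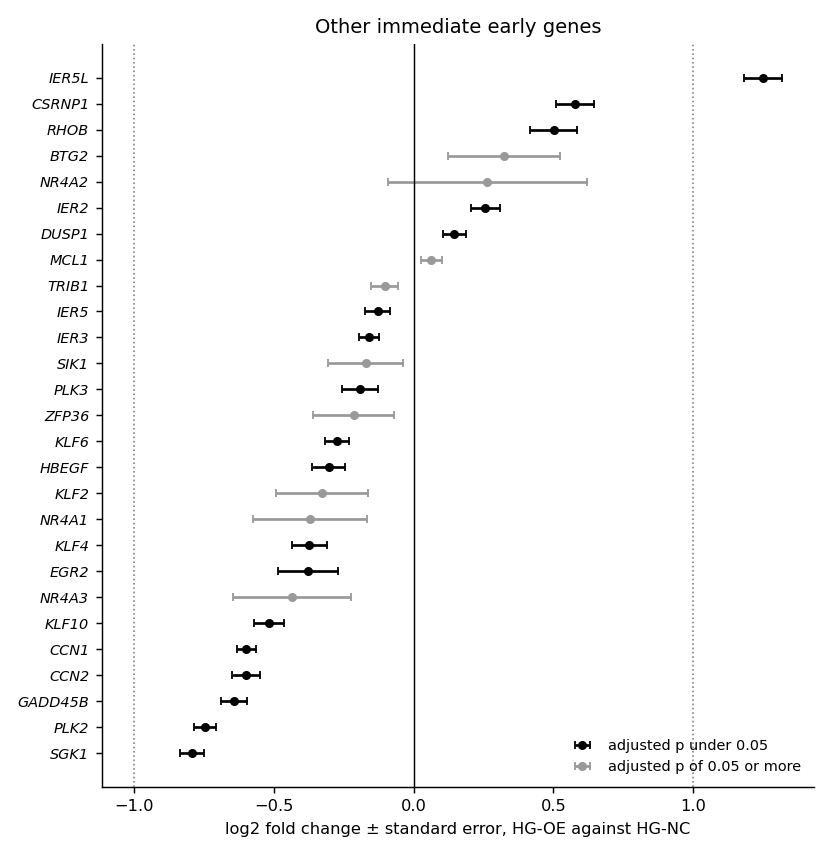
Log2 fold change ± standard error in HG-OE against HG-NC (x axis) of the 27 other immediate early genes tested, ordered by value, with genes at an adjusted p under 0.05 in black, the rest in grey and dotted lines at 2-fold. IER5L stands alone past 2-fold at 1.25, and SGK1 is at the low end at -0.80.

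Of the 20 kinases and factors listed as acting upstream of these genes, 5 were higher, 5 lower and 10 did not pass, none reached 2-fold and the median log2 fold change was -0.02. The stress kinases of JUN moved apart, since MAPK9 (JNK2) rose from 27.9 ± 0.325 to 45.5 ± 2.88 CPM (0.71) and MAPK8 (JNK1) fell from 77.0 ± 1.57 to 63.2 ± 2.03 CPM (-0.28). SRF, the factor of the CArG box, rose by 0.12 (edgeR, adjusted p = 0.0316), and its cofactors ELK1 and ELK4 fell (-0.11 and -0.24). Its other listed cofactors ELK3, MRTFA and MRTFB did not pass (0.07, -0.12 and 0.19).

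The basic leucine zipper partners of AP-1 divided evenly, with 3 of 9 tested higher, 3 lower and 3 that did not pass. JDP2, a repressor that pairs with JUN, rose from 19.5 ± 0.990 to 28.7 ± 0.175 CPM (log2 fold change 0.56) and MAF by 0.64, whereas MAFG, a small MAF protein without a transactivation domain, fell by 0.47. ATF2, a JUN partner at cyclic AMP response elements, fell by 0.31. Among 14 tested AP-1 targets 5 were higher, 5 lower and 4 did not pass, with a median of 0.01. PLAU, urokinase, fell from 989 ± 43.1 to 566 ± 47.3 CPM (-0.80), and CD44, a hyaluronan receptor, fell by 0.38. CCND1, cyclin D1, and TIMP1, an inhibitor of metalloproteinases, rose by 0.45 and 0.41.

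Heat shock genes, a separate rapid stress response, were listed beside these groups. Of 6 tested, 5 rose and 1 fell, and 3 of those that rose were DEGs. HSPA8, the constitutive HSP70, rose from 333 ± 10.4 to 995 ± 132 CPM (log2 fold change 1.58). HSPA1A and HSPA1B, the inducible forms, rose by 1.32 and 1.10. These genes are near-identical and only uniquely mapped reads were counted, so their separate values are uncertain. HSPH1, a nucleotide exchange factor of HSP70, fell by 0.41.

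Likeness of pattern was measured as the root mean square difference of log2 CPM over the 6 libraries, each gene centred on its own mean, among 11562 protein-coding genes with a mean of at least 100 counts. For EGR1 the nearest genes were APOE (0.206), KRT8 (0.223) and CFAP251 (0.239). All of them were higher in every HG-OE library and highest in replicate 3, as EGR1 was, which follows from picking genes by likeness. KRT8 was also among the tubule markers. FOS was nearest to PKP3 (0.427), SLPI (0.481) and PI3 (0.486), genes known from squamous and mucosal epithelium, at distances larger than those of EGR1. PKP3 was at 25.9 CPM in HG-OE replicate 3 and between 3.46 and 5.69 CPM in the other libraries. FOS was itself highest in HG-OE replicate 3, so genes high in that library were favoured by the selection. For JUNB the nearest were NUAK2 (0.00756), HSPB8 (0.0181) and BATF3 (0.0198), the last of them an AP-1 partner.

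Transcript structure is given as a description of the 10 genes, with no test. On the canonical transcripts JUN, JUNB and JUND have a single exon, as do 5.64% of protein-coding transcripts, and of these JUNB alone passed the test. FOSL2 had the longest transcript (6713 bases) and fell. FOS, whose nonamer is shown above, has a transcript of 2104 bases with 5 pentamers and did not pass. MYC (3721 bases, 6 pentamers) and ATF3 (1940 bases, 3 pentamers) fell, and EGR1 (3137 bases, 1 pentamer) and JUNB (1830 bases, 2 pentamers) rose. FOSB and JUN have 3 pentamers each and FOSL1 and JUND 1 each, and none of these passed the test.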

How the data were processed

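Expression was measured in HK-2 cells by directional RNA-seq of polyadenylated RNA, in 3 HG-NC and 3 HG-OE libraries grouped by their labels. After trimming, the authors used HISAT2 with GRCh38 for alignment and assigned uniquely mapped reads to genes, and the counts they deposited are whole numbers without normalization. The deposited FPKM values are the authors' own and were used for comparisons between genes and as an alternative scale. The study's methods name ComBat_seq, and whether it touched these counts is not given in the sources used here.

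Counts were tested in R 4.3.3 with edgeR 4.0.16 (TMM, default low-count filter, quasi-likelihood test, group as the only term), with Benjamini-Hochberg adjustment over 17142 genes. A DEG has an adjusted p under 0.05 and at least a 2-fold change. Standard errors and 95% intervals come from the edgeR fit. The biological coefficient of variation was 0.0683. Single values were compared by exact two-sided permutation tests, whose smallest p is 0.1. The steps were tested on simulated data. DESeq2 1.42.0 and limma 3.58.1 served as alternatives. Read depth was 25507595 to 29444841 counted pairs per library, and Poisson intervals cover counting error only. Of the 31831 genes, 31742 were matched to GENCODE release 44 for positions and transcripts.

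The genes and lists were chosen with earlier results of these data known. Named genes are the 10 genes, HNRNPF, and in each list every DEG with a mean of at least 100 counts plus the up to 3 largest changes that passed the test. The other list genes and marker genes given with values were chosen after their values were seen. Results for some listed genes and for 1 sequence are not reported here.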

Additional observations from a re-analysis of the deposited data

How the results depend on the processing

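EGR1, FOSL2, ATF3 and MYC kept their direction and stayed past an adjusted p of 0.05 in every edgeR, DESeq2 and limma alternative run. FOS crossed the threshold without a low-count filter (log2 fold change 1.43, edgeR adjusted p = 0.0343) and with a replicate block (1.33, adjusted p = 0.0367), and leaving out single libraries gave 0.42 to 2.00. FOSL1 ranged from 0.075 to 0.21 over the leave-outs. JUNB no longer passed with limma on log2(FPKM + 1) (0.14, adjusted p = 0.0809), on log2(FPKM + 0.1) (0.14, adjusted p = 0.0770) or without the FPKM filter (0.14, adjusted p = 0.147), and its leave-outs ran from 0.11 to 0.22. The cause was not tested. Removing the median of neighbours within 10 Mb gave -0.093 for FOSB, -0.061 for FOSL1, -0.20 for FOSL2, 0.011 for JUND and -0.51 for MYC. The number of DEGs among the 10 genes was 2 without the filter and 2 with the block (FOS added), 0 with limma on log2(FPKM + 1) with or without the FPKM filter, where the pseudocount shrinks the fold of low genes, and 1 to 2 over the leave-outs. The number at an adjusted p under 0.05 was 4 to 6 over the leave-outs. With CPM in place of FPKM, the share differences were 0.169 (FOSB, reversed from -0.0348), 7.30 (FOSL1), -7.65 (FOSL2), 2.50 (JUNB) and -1.14 percentage points (JUND). The FOS share difference of 0.231 was 0.0459 without HG-OE replicate 3. The FOSB difference also reversed without HG-NC replicate 1 (0.00427), over a leave-out range of -0.0671 to 0.00427.

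Over all genes, 997 DEGs became 1539 without the filter, 617 with at least 10 counts in every library, and 144 or 138 with limma on log2(FPKM + 1) with or without the FPKM filter. Deviations of same-numbered libraries from their group means had correlations of -0.0273 to 0.0301. These values showed no pairing by number, but with 3 libraries per group they cannot exclude it. The block gave 990 DEGs. FOS had 4 to 62 counts per library, the lowest depth among the 10 genes.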
